A study of Mus musculus with 2 samples.

Results

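Endothelial cells line the blood and lymphatic vessels and the chambers of the heart, and 40 of their genes are described here in whole mouse heart. The 40 were named as a list, with results of these data already known, and were matched by symbol among 55536 mouse genes of the tables, in which all 40 are annotated as protein-coding. Total RNA was sequenced from the hearts of 2 female B6CASTF1/J mice aged 36 days, from 300 ng of RNA each (replicate 2 is animal 4, replicate 1 is animal 3). B6CASTF1/J is the hybrid of the inbred strains C57BL/6J and CAST/EiJ. The labels give neither animal a treatment or an engineered allele, and the 2 form a single group, so the design gives levels and the spread between 2 hearts, with no contrast of conditions. By the labels each library is a biological replicate with its own biosample and animal number, yet 1 donor identifier is shared by both. The libraries were treated as 2 animals, and the shared identifier was not resolved.

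The endothelium of the heart is mostly capillary. Its cells are held together by cadherin and claudin junctions, are kept quiet by angiopoietin 1 acting on the receptor Tie2, and take their identity from transcription factors of the ETS and SoxF families. Lymphatic vessels carry fluid and leukocytes away from the muscle wall and have some surface proteins of their own. In whole tissue, fewer cells of a type and less RNA per cell cannot be told apart. A level here is a TPM value, that is, an abundance corrected for transcript length and for the size of the library, and a pooled level is the mean ± SD over n = 2.

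Both hearts held RNA of Cdh5 and Pecam1, defining genes of endothelium and themselves members of the list, at over 40 TPM. Of the 40 genes, 37 were detected, meaning that both libraries reached 1 TPM, a share to be read beside the 21.7% of all mouse genes that passed the same cut. Only 22028 of those mouse genes are protein-coding, as all 40 members are, and the share among these is not given here. The 3 members not detected were the vessel-destabilising ligand Angpt2 and the selectins Selp and Sele. Of these, Selp passed the cut by the authors' posterior mean TPM (1.28 TPM in replicate 2, 1.10 TPM in replicate 1). A mean above 20 TPM was found for 12 of the genes, 21 lay between 5 and 20 TPM and 7 lay under 5 TPM. The median of the 40 levels was 12.2 TPM in replicate 2 and 12.6 TPM in replicate 1. The 5 highest, Ly6c1, Egfl7, Cdh5, Pecam1 and Gpihbp1, held 37.5% of the summed level. Ly6c1 lay above every other member in both hearts. The range of Pecam1 took in both values of Cdh5, of Gpihbp1 and of Eng, so by these values Pecam1 has no fixed place among these. Cdh5 lay above Gpihbp1 and Gpihbp1 above Eng in each heart, with ranges that overlapped between neighbours, while both values of Cdh5 were above both of Eng.

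**Figure D1:**
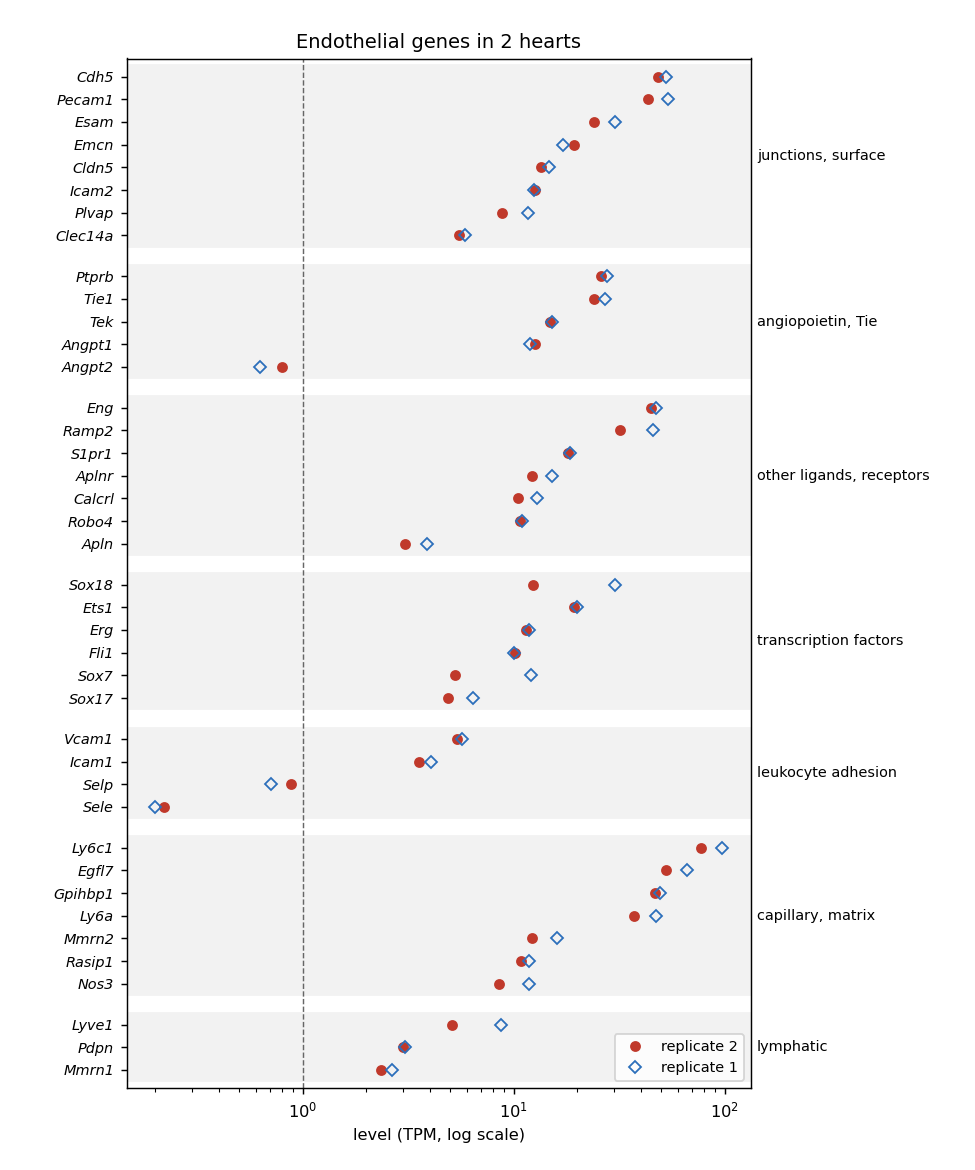
Level of each of the 40 genes (TPM, log axis) in replicate 2 (filled circles) and replicate 1 (open diamonds), grouped by role, with the 1 TPM detection limit dashed. Most pairs of points lie close together, while Sox18 (12.4 TPM in replicate 2, 30.0 TPM in replicate 1), Sox7 (5.29 TPM in replicate 2, 12.1 TPM in replicate 1) and Lyve1 (5.08 TPM in replicate 2, 8.67 TPM in replicate 1) stand apart.

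Replicate 2 had 38332179 and replicate 1 had 39053339 expected counts in all, and the 40 genes took 0.141% of the counts of mouse genes in replicate 2 and 0.164% in replicate 1. No member was at 0 in either library. Ratios are of replicate 2 over replicate 1 and were taken from counts scaled with the TMM factors of edgeR. Each gene was set against these scaled library sizes in an exact two-sided binomial test, with Benjamini-Hochberg adjustment over the 13745 genes that reached 50 counts over both libraries. The test sets the reads of 1 library against those of another and says nothing of conditions, it has no replicate check, and its intervals cover counting error only. The members' levels followed each other across the libraries with Pearson's r = 0.98, taken on log2 of TPM plus 1, and Spearman's rho = 0.96. Both values describe 40 genes that share 2 libraries.

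The junction and surface genes were all detected and ranged from the level of Cdh5 down to that of Clec14a. Cdh5, which encodes VE-cadherin, the adhesive protein of endothelial junctions (chromosome 8, 104101625 to 104144511 in mm10), had 48.0 TPM in replicate 2 and 52.3 TPM in replicate 1. Pecam1, the junctional immunoglobulin protein CD31, had 43.3 TPM in replicate 2 and 53.9 TPM in replicate 1. Esam, another junctional adhesion molecule, stood at 24.1 TPM in replicate 2 and 30.1 TPM in replicate 1. In these 3 genes replicate 2 was the lower heart, and each passed the adjusted threshold. The log2 ratios were -0.09 for Cdh5, -0.23 for Pecam1 and -0.28 for Esam. Scaled to the spike-in RNAs, Cdh5 and Pecam1 changed sign (0.15 for Cdh5, 0.01 for Pecam1) and Esam stood at -0.03. Pecam1 (adjusted p = 0.752) and Esam (adjusted p = 0.623) no longer passed there in the exact binomial test. Which of Cdh5 and Pecam1 was the higher depended on the heart and on the quantification. Cdh5 made up 52.6% of their summed level in replicate 2 and 49.3% in replicate 1. In a second deposited quantification Cdh5 was the higher in both hearts, at 59.5% in replicate 2 and 55.1% in replicate 1.

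Cldn5, the claudin of endothelial tight junctions, averaged 14.1 ± 0.9 TPM. Icam2, a constitutive ligand of leukocyte integrins, averaged 12.5 ± 0.1 TPM, 3.30 times its inducible relative Icam1. Emcn, an endothelial sialomucin of veins and capillaries, had 19.3 TPM in replicate 2 and 17.2 TPM in replicate 1, and its log2 ratio of 0.16 did not pass the threshold (adjusted p = 0.126, exact binomial test), but did on the spike-in scale (0.40). Clec14a, a C-type lectin of the vessel wall, had 5.52 TPM in replicate 2 and 5.88 TPM in replicate 1. Plvap, which builds the diaphragms of fenestrated vessels and is low in continuous capillaries, had 8.84 TPM in replicate 2 and 11.7 TPM in replicate 1. Its log2 ratio was -0.34 (95% interval -0.51 to -0.18, adjusted p = 0.000456, exact binomial test). On the spike-in scale Plvap no longer passed the threshold (-0.10, adjusted p = 0.316, exact binomial test). Plvap overlaps the protein-coding gene Gtpbp3 on the opposite strand over 1819 bases, and whether counting used strand is not given in the sources used here.

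In the angiopoietin system the receptors and the stabilising ligand were well above the antagonist. Angpt1, the ligand that activates Tie2 and is made largely by mural and other stromal cells, had 12.6 TPM in replicate 2 and 12.0 TPM in replicate 1. Angpt2, the ligand stored in endothelial cells that opposes it, had 0.80 TPM on 84 counts in replicate 2 and 0.63 TPM on 68 counts in replicate 1. Angpt1 thus took 94.5 ± 0.7% of their summed level. Angpt2 lies within Mcph1, which is read from the opposite strand and had 1.58 TPM in replicate 2 and 1.48 TPM in replicate 1.

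Tek, which encodes Tie2, had 14.8 TPM in replicate 2 and 15.1 TPM in replicate 1, and its relative Tie1, which modulates Tie2, averaged 25.4 ± 2.1 TPM. Tie1 was the higher of the pair in both hearts, at 61.8% of the sum in replicate 2 and 64.1% in replicate 1. Ptprb, the phosphatase VE-PTP that removes phosphate from Tie2 and VE-cadherin, had 25.9 TPM in replicate 2 and 27.5 TPM in replicate 1. Angpt1 was the single member past the adjusted threshold upward, with a log2 ratio of 0.14 (95% interval 0.04 to 0.25, adjusted p = 0.0279, exact binomial test). In the same test it no longer passed with DESeq2 size factors (adjusted p = 0.0585) or with total counts (adjusted p = 0.37). It still passed on the spike-in scale (0.39), in the second quantification (0.13) and without the count filter. Tie1 had a log2 ratio of -0.11 (adjusted p = 0.0153, exact binomial test), which changed sign on the spike-in scale (0.13).

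Of the other ligands and receptors, Eng was the highest. Eng, the TGF-beta co-receptor endoglin, had 44.4 TPM in replicate 2 and 47.4 TPM in replicate 1. S1pr1, the receptor for sphingosine 1-phosphate that steadies the capillary barrier, averaged 18.3 ± 0.3 TPM. Robo4, an endothelial roundabout receptor, averaged 10.8 ± 0.2 TPM, and its neuronal relative Robo1 averaged 0.51 ± 0.01 TPM, so that Robo4 held 95.5% of the pair in each heart. None of the 3 passed the threshold with TMM scaling, whereas on the spike-in scale all 3 passed it upward (Eng 0.19, S1pr1 0.27, Robo4 0.22). With total counts Eng passed it downward (-0.13), so its direction depended on the scale.

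Apln encodes the peptide apelin, made by sprouting tips and capillaries, and Aplnr encodes its receptor. The receptor was the more abundant RNA. Aplnr had 12.2 TPM in replicate 2 and 15.2 TPM in replicate 1, and Apln had 3.04 TPM in replicate 2 and 3.90 TPM in replicate 1. The receptor made up 79.8 ± 0.4% of the pair. Both were lower in replicate 2, Aplnr by a log2 ratio of -0.38 (adjusted p = 2.78e-09) and Apln by -0.30 (adjusted p = 0.0383), in the exact binomial test. Apln no longer passed without the count filter (adjusted p = 0.0648) or on the spike-in scale (adjusted p = 0.68).

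Calcrl encodes the calcitonin receptor-like receptor, which becomes an adrenomedullin receptor when it pairs with the accessory protein of Ramp2. Calcrl had 10.5 TPM in replicate 2 and 12.9 TPM in replicate 1. Ramp2 had 32.0 TPM in replicate 2 and 45.6 TPM in replicate 1. The other accessory genes of the family were far lower, Ramp1 at 2.46 ± 0.21 TPM and Ramp3 at 2.38 ± 0.41 TPM. Ramp2 held 93.9 ± 0.9% of its sum with Ramp1 and 94.2 ± 0.4% of its sum with Ramp3. The log2 ratio of Ramp2 was -0.45 (95% interval -0.58 to -0.31) in the first quantification and -0.21 in the second, so its size depended on the estimate. Ramp2 shares 5840 bases of the same strand with Vps25 (34.5 TPM in replicate 2, 33.4 TPM in replicate 1), and it had the widest posterior spread of the 5 members with shared reads, 14.1 counts in replicate 2 and 8.29 counts in replicate 1. The whole-number counts of the other 35 members had no such spread.

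The transcription factors held the widest difference between the 2 hearts, and it lay within a single family. Sox7, Sox17 and Sox18 are the SoxF genes, which act in overlapping ways in vessel formation and bind DNA through an HMG box. The longest identical run between any transcripts of Sox18 and Sox7 was 20 bases. The SoxF genes, Sox17 included, had whole-number counts with no shared reads.

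Sox18 (chromosome 2, 181669836 to 181671640) had 12.4 TPM on 574 counts in replicate 2 and 30.0 TPM on 1436 counts in replicate 1. Sox7 (chromosome 14, 63943673 to 63950732) had 5.29 TPM on 515 counts in replicate 2 and 12.1 TPM on 1219 counts in replicate 1. Both genes were thus lower in replicate 2, where their scaled counts were 2.33-fold (Sox18) and 2.20-fold (Sox7) below those of replicate 1. The log2 ratio was -1.22 for Sox18 (95% interval -1.36 to -1.08; adjusted p = 5.66e-70, exact binomial test). It was -1.14 for Sox7 (95% interval -1.29 to -0.99; adjusted p = 2.29e-53, exact binomial test). In the second quantification Sox18 stood at -1.27 and Sox7 at -1.13, and on the spike-in scale Sox18 stood at -0.98 and Sox7 at -0.90, where neither reached 2-fold. Of the 13745 genes tested, 93 had a lower ratio than Sox18 and 104 had a lower ratio than Sox7.

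Sox17 (chromosome 1, 4490931 to 4497354) did not show this difference. It had 4.89 TPM on 248 counts in replicate 2 and 6.39 TPM on 290 counts in replicate 1, with a log2 ratio of -0.12 (95% interval -0.37 to 0.13; adjusted p = 0.574, exact binomial test). The interval does not overlap those of Sox18 and Sox7. Sox18 took 71.7% of the sum of Sox18 and Sox17 in replicate 2 and 82.5% in replicate 1, whereas its share beside Sox7 was 70.1% in replicate 2 and 71.3% in replicate 1. The proportion of Sox18 to Sox7 was therefore nearly equal in hearts in which the level of each differed by more than 2-fold.

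The ETS factors were close in the 2 hearts. Erg, which maintains endothelial identity, averaged 11.6 ± 0.2 TPM, its near relative Fli1 averaged 10.1 ± 0.1 TPM, and Ets1 averaged 19.6 ± 0.4 TPM. Ets1 made up 62.8% of its sum with Erg in replicate 2 and 62.7% in replicate 1. Fli1 made up 46.5 ± 0.7% of its sum with Erg, but 50.2 ± 1.2% in the second quantification, so no order of these 2 can be given. None of the 3 passed the threshold, with log2 ratios from 0.02 for Erg to 0.13 for Fli1, whereas on the spike-in scale all 3 passed it upward (0.27 for Erg, 0.28 for Ets1, 0.37 for Fli1).

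The genes by which activated endothelium catches leukocytes were the lowest group. Vcam1, the ligand of leukocyte integrin VLA-4, had 5.40 TPM in replicate 2 and 5.69 TPM in replicate 1. Icam1, the inducible ligand of LFA-1, had 3.55 TPM in replicate 2 and 4.05 TPM in replicate 1. Selp, the selectin stored for rapid release, had 0.88 TPM on 76 counts in replicate 2 and 0.71 TPM on 75 counts in replicate 1. Sele, the selectin made on inflammatory stimulation, had 0.22 TPM on 19 counts in replicate 2 and 0.20 TPM on 18 counts in replicate 1, and was the only member too low to be tested. Vcam1, Icam1 and Selp did not pass the threshold, although Vcam1 did on the spike-in scale (0.25). For Selp the 95% interval of the log2 ratio ran from -0.36 to 0.60, and no difference was detectable at this depth.

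The capillary and matrix genes were the highest group, with a median of 37.2 TPM in replicate 2 and 47.1 TPM in replicate 1. Ly6c1, a GPI-anchored surface antigen of mouse capillary endothelium (chromosome 15, 75044018 to 75048830), led all members with 76.9 TPM in replicate 2 and 97.3 TPM in replicate 1 and ranked 734 among all genes. Ly6a, the antigen Sca-1, had 37.2 TPM in replicate 2 and 47.1 TPM in replicate 1. Ly6c1 was 67.4% of the sum of the pair in both hearts. Ly6c2, the neighbouring copy known from monocytes, had 1.76 TPM in replicate 2 and 3.55 TPM in replicate 1, and Ly6c1 took 97.1 ± 0.9% of that pair. The coding sequences of Ly6c1 and Ly6c2 are 393 bases each and differ at 9 positions, so a read from a shared coding stretch can be placed on neither by its letters. A stretch of 100 coding bases in which they are identical and the 60 bases in which they differ most, at 6 positions in capitals, show this. The Ly6c1 stretches lie at chr15:75047375-75048446 and chr15:75048447-75048506 and the Ly6c2 stretches at chr15:75110533-75111602 and chr15:75111603-75111662, all on the minus strand of mm10.
Ly6c1, identical stretch: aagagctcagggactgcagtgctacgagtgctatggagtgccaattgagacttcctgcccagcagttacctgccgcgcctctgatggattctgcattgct
Ly6c2, identical stretch: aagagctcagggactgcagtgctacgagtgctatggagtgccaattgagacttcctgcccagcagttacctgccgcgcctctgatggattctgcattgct
Ly6c1, stretch with differences: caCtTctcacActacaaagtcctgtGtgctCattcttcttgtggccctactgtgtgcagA
Ly6c2, stretch with differences: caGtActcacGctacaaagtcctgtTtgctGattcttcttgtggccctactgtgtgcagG
The longest run shared by the 2 genes was 188 bases, and that shared by Ly6c1 and Ly6a was 118 bases. The authors' posterior spread of the Ly6c1 count was 3.99 counts on 1628 in replicate 2 and 5.71 counts on 2104 in replicate 1, but with copies this alike the split between Ly6c1 and Ly6c2 is uncertain.

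Egfl7, a secreted protein of the endothelial matrix (chromosome 2, 26580014 to 26593120), had 52.6 TPM in replicate 2 and 66.3 TPM in replicate 1. Egfl7 is also the host of miR-126, a well-known microRNA of endothelial cells, whose mature sequence lies at chr2:26591402-26591423 on the plus strand, inside the gene and exonic in 1 of its 19 annotated transcripts. The sequence is from RefSeq (GRCm38.p6) with the seed, bases 2 to 8, in capitals.
mmu-miR-126a-3p: uCGUACCGugaguaauaaugcg
The row of the precursor gene Mir126a was listed at 0 TPM in both libraries, as were the other microRNA genes that overlap members, Mir126b, Mir1954 and Gm47291. The level of the mature microRNA cannot be read from that row.

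Gpihbp1, which carries lipoprotein lipase to the capillary lumen, averaged 47.9 ± 2.1 TPM and was nearly equal in the 2 hearts. Nos3, the endothelial nitric oxide synthase, had 8.54 TPM in replicate 2 and 11.8 TPM in replicate 1. Mmrn2, an endothelial matrix protein, had 12.2 TPM in replicate 2 and 16.1 TPM in replicate 1. Rasip1, a regulator of small GTPases in vessel lumen formation, had 10.8 TPM in replicate 2 and 11.8 TPM in replicate 1. All 7 genes of the group had log2 ratios below 0, and 5 passed the threshold (background 11.8% of all tested genes in this direction), namely Nos3 at -0.41, Mmrn2 at -0.28, Ly6c1 at -0.27, Ly6a at -0.25 and Egfl7 at -0.23. On the spike-in scale Nos3 alone of these still passed. There Mmrn2 stood at -0.04 (adjusted p = 0.558), Ly6c1 at -0.02 (adjusted p = 0.68) and Ly6a at -0.0045 (adjusted p = 0.978), and Egfl7 changed sign (0.01), as did Gpihbp1 (0.18) and Rasip1 (0.17).

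The lymphatic members were low. Lyve1, the hyaluronan receptor of lymphatic vessels that tissue macrophages also carry (chromosome 7, 110850607 to 110863239), had 5.08 TPM on 326 counts in replicate 2 and 8.67 TPM on 615 counts in replicate 1. Pdpn, the mucin podoplanin, which fibroblasts and mesothelium also make, had 3.00 TPM in replicate 2 and 3.06 TPM in replicate 1. Mmrn1, which platelets store as well, had 2.35 TPM in replicate 2 and 2.64 TPM in replicate 1, and its relative Mmrn2 took 84.9 ± 1.5% of their sum. Lyve1 had a log2 ratio of -0.81 (95% interval -1.01 to -0.62; adjusted p = 1.64e-15, exact binomial test), short of 2-fold, and 208 of the tested genes had a lower one. Pdpn and Mmrn1 did not pass, at 0.03 and -0.11, and the interval of neither overlaps that of Lyve1.

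**Figure D2:**
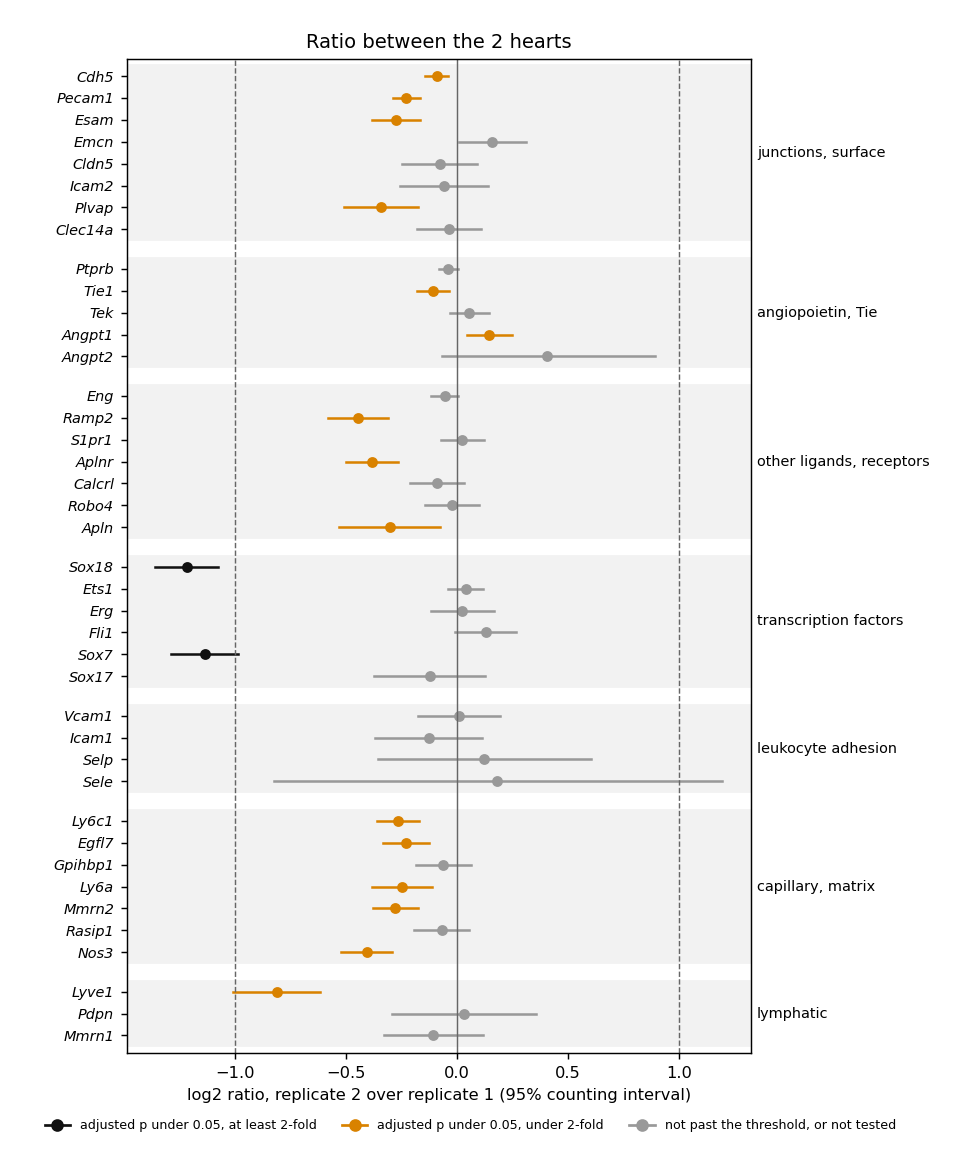
Log2 ratio of counts, replicate 2 over replicate 1, of each gene with its exact 95% counting interval, by role, with 2-fold limits dashed. Sox18 (-1.22) and Sox7 (-1.14) lie beyond 2-fold with adjusted p under 0.05, Lyve1 (-0.81) is next, and Angpt1 (0.14) is the only gene past the threshold to the right of 0.

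Counted over the list, 2 of the 39 tested members were called at an adjusted p under 0.05 and at least 2-fold, Sox18 and Sox7, or 5.13%, against a background of 1.53% of all tested genes. Both were lower in replicate 2, where the background is 0.982%. At any fold, 17 of 39 (43.6%) passed the adjusted threshold against a background of 21.9%, with 16 lower (background 11.8%) and 1 higher (background 10.0%) in replicate 2. On the spike-in scale 24 of 39 passed against a background of 57.9%, with 6 lower (background 2.66%) and 18 higher (background 55.2%). There the total lay near its background and the lower part above it. No member reached the 2-fold call there, where the background is 1.82%. The median summed count was 1924 for the members and 916 for all tested genes, so the same shares were taken among genes that reached 500 counts over both libraries, a cut added after seeing the data, where 17 of 36 members (47.2%) passed against 28.7% of all such genes. With TMM scaling the other 22 tested members did not pass at any fold. The members were chosen with results known, so these shares are a description.

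The median log2 ratio of the members was -0.09 and that of all tested genes 0.00. The scale of the spike-in RNAs adds the same amount to every ratio, giving a median of 0.24 for all genes and of 0.15 for the members, so the members' median changed sign there and still lay below that of all genes. Levels were within 1.5-fold of each other in the 2 hearts for 37 of the 40 members, or 92.5%, beside 93.9% of the 12364 genes with a mean of at least 1 TPM. The median coefficient of variation was 8.31% for members and 7.12% for those genes.

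All 36 genes of another endothelial list were detected, from the fatty acid transporter Cd36, also made by heart muscle, at 700.6 ± 10.0 TPM to the protein C receptor Procr at 1.54 ± 0.51 TPM. Their median log2 ratio was -0.06, with 4 past the threshold upward (background 10.0%) and 13 downward (background 11.8%). Their median summed count was 3062, against 916 for all tested genes. Procr was called, at -1.07 on 37 counts in replicate 2 and 84 in replicate 1 (adjusted p = 0.00103, exact binomial test). Among genes of artery, vein and endocardium, 11 of 13 were detected. They ran from the venous receptor Ephb4 at 21.4 ± 1.9 TPM to the venular chemokine receptor Ackr1 at 0.20 ± 0.11 TPM. Of the 12 tested, 0 passed upward (background 10.0%) and 3 downward (background 11.8%). Hey1, a Notch target of arteries chosen after its values were seen, had the lowest log2 ratio among these, -0.80, on 228 counts in replicate 2 and 426 in replicate 1.

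The other lymphatic list gave no common direction. Of its 10 genes 7 were detected, led by the scavenger receptor Stab1, also made by macrophages, at 27.1 ± 4.6 TPM, with Stab2 lowest at 0.08 ± 0.01 TPM. Its median log2 ratio was 0.07, with 1 of 8 tested genes past the threshold upward (background 10.0%) and 2 downward (background 11.8%). The macrophage and leukocyte list, whose cells can also make Lyve1 and Ly6c2, summed to 122 TPM in replicate 2 and 131 TPM in replicate 1. Of its genes 12 of 15 were detected and 0 listed at 0, from Lyz2 at 52.0 ± 1.9 TPM to the T-cell gene Cd3e at 0.16 ± 0.02 TPM. Of the 12 tested, 1 passed upward (background 10.0%) and 3 downward (background 11.8%). The part of macrophages in the Lyve1 ratio was not tested.

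Pericyte and smooth muscle genes, whose cells wrap the vessels, had a median log2 ratio of -0.05, with 11 of 11 detected, from Rgs5 at 107 ± 5 TPM to Cnn1 at 3.25 ± 0.86 TPM. Fibroblast and mesothelial genes had a median of 0.02 (12 of 12 detected, from Gsn at 343 ± 8 TPM to Upk1b at 2.54 ± 0.59 TPM). Cardiomyocyte genes had a median of 0.01 (8 of 8 detected, from Myh6 at 8639 ± 451 TPM to Ryr2 at 371 ± 22 TPM). In the pericyte and smooth muscle list 1 gene passed the threshold upward and 2 downward. In the fibroblast and mesothelial list 4 passed upward and 2 downward, and in the cardiomyocyte list 4 upward and 4 downward. The background was 10.0% upward and 11.8% downward. Median summed counts were 3739, 3109 and 347829.5 for these lists in that order, against 916 for all tested genes. At such depth very small ratios passed in the cardiomyocyte list, whose log2 ratios ran from -0.13 for Actc1 to 0.17 for Myh6.

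Of the lists compared, the erythroid one had the median farthest from 0, in the same direction as Sox18, Sox7 and Lyve1. The 7 erythroid genes summed to 11883 TPM in replicate 2 and 36364 TPM in replicate 1, or 0.503% of counts in replicate 2 and 1.57% in replicate 1, and their median log2 ratio was -1.60. All 7 were called lower (background 0.982%), among them the beta globin Hbb-bs (4196 TPM in replicate 2, 12909 TPM in replicate 1). The platelet list summed to 18.5 TPM in replicate 2 and 27.3 TPM in replicate 1, with 3 of 7 genes detected, 0 listed at 0, and a median of -0.88 over the 3 tested. Pf4, the chemokine of platelet granules, was its highest gene at 15.1 ± 2.5 TPM. The defining endothelial genes Cdh5 and Pecam1 had ratios of -0.09 and -0.23 in the same libraries. The part of blood left in the heart in the ratios of the members was not tested.

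**Figure D3:**
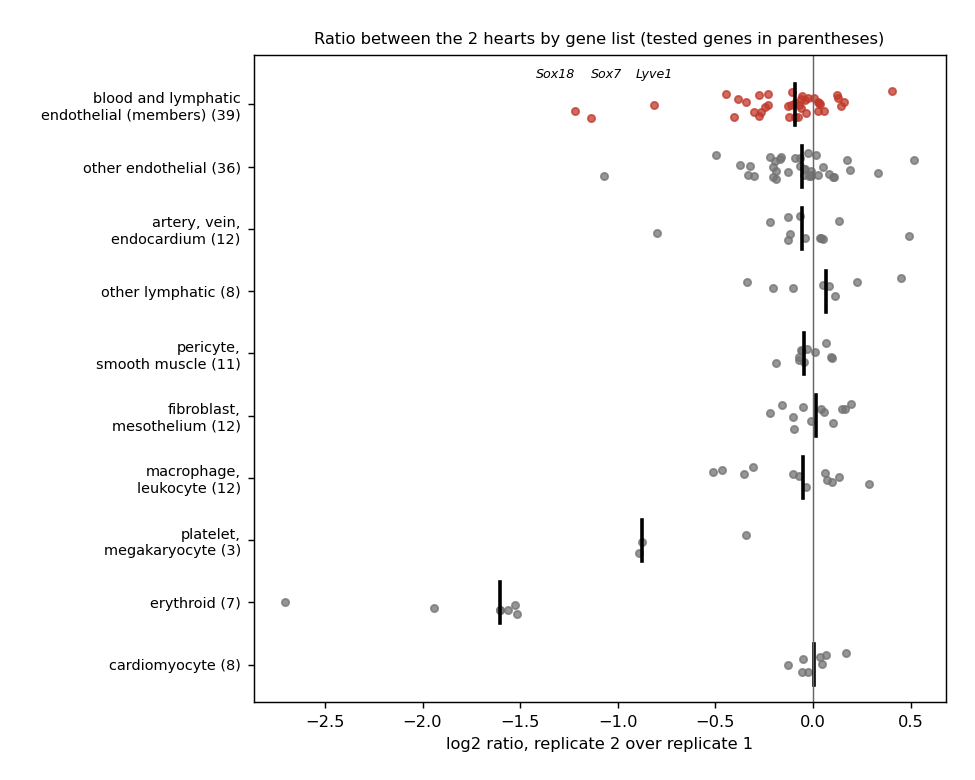
Log2 ratio, replicate 2 over replicate 1, of each tested gene (points, with vertical jitter) in the 40-gene list (top, red) and 9 other lists, with list medians as black bars and the median of all tested genes as a thin line. The erythroid list lies far to the left (median -1.60), the platelet list next (-0.88), and the remaining medians lie between -0.09 and 0.07.

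For some members the transcript shares depended on the quantification. Of the 40 genes, 9 have 1 annotated transcript, Sox18, Sox7, Sele and Cldn5 among them, and 31 have several. The transcript with the highest mean share was the same in both quantifications for 26 of these 31, and it held over 90% of the level in both for 6, namely Angpt1, Tie1, Icam1, Mmrn2, Selp and Pdpn. The leading transcripts differed for Pecam1, Robo4, Erg, Egfl7 and Ly6a. For Robo4 the second quantification put first Robo4-204, annotated for nonsense-mediated decay, at 35.8 ± 2.0%, where the first had the coding Robo4-205 at 30.9 ± 1.2%. Egfl7, with 19 transcripts, was led by Egfl7-202 at 26.0 ± 1.2% in the first, a transcript the second listed at 0.

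Sox17-204, which led Sox17 by its mean share and in replicate 1, while Sox17-208 led in replicate 2, took 17.6% of the gene in replicate 2 and 40.1% in replicate 1 in the first quantification. The second gave 19.5% in replicate 2 and 42.5% in replicate 1, so both gave Sox17-204 the lower share in replicate 2. Over both hearts and both quantifications 3 different transcripts led Sox17, which had 248 counts in replicate 2 and 290 in replicate 1. The 2 quantifications are of the same libraries and give no independent check. Ly6c1-201 took 74.2% in replicate 2 and 62.1% in replicate 1 in the first quantification, but 7.45% in replicate 2 and 56.8% in replicate 1 in the second. Cdh5-201 held 99.2 ± 1.2% in the first and 65.7 ± 2.7% in the second, and the gene's level was 1.68 times as high in the second, the highest such ratio of the 40, whereas Calcrl had the lowest at 0.768. Over all members the second quantification gave a median of 1.12 times the level of the first, with a Spearman's rho of 0.98 between them over the 40 genes.

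**Figure D4:**
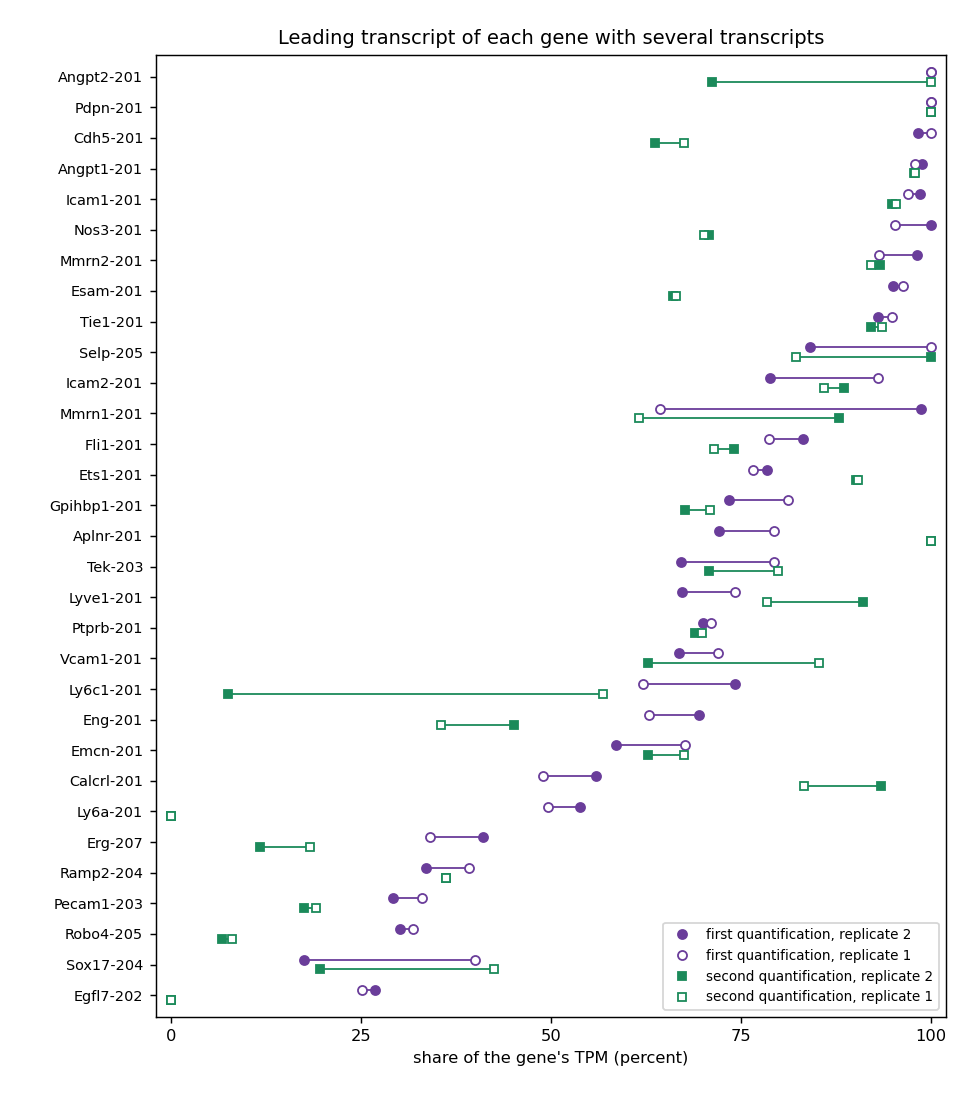
Share (percent of the gene's TPM) of the transcript that led in the first quantification, for the 31 genes with several transcripts, in the first (circles) and second (squares) quantification, with replicate 2 filled, replicate 1 open and a line joining the 2 hearts. Ly6a-201 and Egfl7-202 are at 0 in the second quantification, and Sox17-204 is split between the hearts in both.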

How the data were processed

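Total RNA from 2 female mouse hearts was sequenced, 1 library each, and both libraries form 1 group. The authors quantified the reads against mm10 with annotation M21, per the file headers and labels; the sources used here name neither the programs nor the use of strand. The deposited expected counts are estimated reads per gene that are not normalized, and the deposited TPM values are scaled by length and library. A second deposited quantification gave estimated counts and TPM values per transcript, summed here per gene. The reference of both quantifications is of C57BL/6J, and the effect of CAST alleles was not measured in either.

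Expected counts were rounded and compared by an exact binomial test on effective library sizes from TMM (edgeR 4.0.16; DESeq2 1.42.0 as an alternative; R 4.3.3, scipy 1.17.1), with 0.5 added to counts for log2 ratios. The test was checked on simulated counts that varied by counting error alone, which the test itself assumes. That check cannot speak for variation between animals. The quasi-likelihood test of edgeR needs replicates on a side and could not be fitted. The members and lists were chosen with earlier results of these data known. Named were all 40 members, the highest, the lowest and any called gene of each list, and 18 pairs; some values and sequences under this rule are not reported here.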

Additional observations from a re-analysis of the deposited data

How the results depend on the processing

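No paired analysis was possible because the libraries form 1 group. The ratios between the libraries have 1 library on each side, so leaving out a replicate gives no value for them. On the spike-in scale 0 of the 39 tested members were called (background 1.82%), and the median log2 ratio of the members turned to 0.15. Ratios past the adjusted threshold in either scaling changed sign there for Calcrl (0.15), Cdh5 (0.15), Clec14a (0.21), Egfl7 (0.0119), Eng (0.19), Gpihbp1 (0.18), Pecam1 (0.0125), Ptprb (0.20), Rasip1 (0.17), Robo4 (0.22) and Tie1 (0.13), and ratios past it in neither did so for Cldn5, Icam1, Icam2, Mmrn1 and Sox17; the whole scale moves with the spike-in share, 0.427% of counts in replicate 2 and 0.532% in replicate 1. At any fold 24 members passed there (background 57.9%), 18 higher (background 55.2%) and 6 lower (background 2.66%). The total lay near its background and the lower part above it. Apln, Egfl7, Esam, Ly6a, Ly6c1, Mmrn2, Pecam1 and Plvap no longer passed there. Passing there but not with TMM scaling were Angpt2, Calcrl, Clec14a, Emcn, Eng, Erg, Ets1, Fli1, Gpihbp1, Ptprb, Rasip1, Robo4, S1pr1, Tek and Vcam1. With DESeq2 size factors, total counts, no count filter, the second quantification or, added after seeing the data, centring by GC content or length, sign changes were limited to Erg, Ets1, Pdpn, S1pr1, Tek and Vcam1, which passed the threshold in neither. Sox18 and Sox7 stayed called under each of these. Calcrl (-0.17), Eng (-0.13) and Ptprb (-0.12) passed the threshold with total counts, all downward, though not with TMM scaling. Ptprb also did so with DESeq2 size factors (-0.06). Angpt1 no longer passed with DESeq2 size factors or total counts, nor Apln without the count filter. Centring shifted only the ratios and kept the adjusted p-values of the main test, so it could not change which members passed the threshold. A limit of 1.5-fold added Lyve1 (background 3.54%). The median level was 13.4 TPM in the second quantification against 12.4 TPM; the cause was not tested. Without each replicate in turn the median level ran from 12.2 to 12.6 TPM, the detected members stayed at 37, members within 1.5-fold of their mean level ran from 38 to 40, pairs with the first gene over 50% from 15 to 16 and leading transcripts kept from 37 to 40. Detected members were 39 at a TPM of 0.5, 32 at a TPM of 5 and 38, with Selp added, by posterior mean TPM. The median width to either side of the members' 95% counting intervals was 0.14 on the log2 scale.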
